A study of Homo sapiens with 4 samples.

Results

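The genes described here encode aminoacyl-tRNA synthetases, measured by RNA-seq in Reh-6-MPR cells, a line of B-cell acute lymphoblastic leukemia (B-ALL) cells derived from Reh and resistant to 6-mercaptopurine (6-MP). Members were taken by name alone: protein-coding genes whose symbol is a letter followed by ARS, with or without a 1 or 2, together with EPRS1, FARSA, FARSB and FARS2. This gave 35 of the 29833 genes in the table. Of these, 20 encode cytosolic enzymes and 15, with symbols ending in 2, encode mitochondrial enzymes. GARS1 and KARS1, counted here as cytosolic, supply both compartments.

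Aminoacyl-tRNA synthetases join each amino acid to its tRNA, the step at which the genetic code is read into protein. Cytosolic and mitochondrial translation mostly use separate nuclear genes. The enzymes form a pair of unrelated structural classes, I and II, and several cytosolic enzymes sit in a multisynthetase complex held together by the scaffold proteins AIMP1, AIMP2 and EEF1E1. When tRNAs are left uncharged, the kinase GCN2 (gene EIF2AK4) favours translation of the transcription factor ATF4, and many cytosolic synthetase genes are known ATF4 targets.

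The study asked which genes take part in the response of resistant cells to histidine and 6-MP. Wild-type Reh-6-MPR cells in dishes received PBS (vehicle), histidine at 4 mM, 6-MP, a thiopurine drug, at 1.0 µg/mL, or both agents at those doses, for 48 h. All groups therefore share the resistant background of a single line, and the parental line is not part of the comparison. Each treatment had 1 library, so no spread between replicates exists, no test was made, and each difference compares libraries. The values are FPKM, reads divided by gene-model length and by the library total, and a difference means log2(FPKM + 1) in the first library minus that in the second.

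Whole read numbers were worked back from the FPKM. The depth ranged from 12899122 reads (combined treatment) to 15486376 reads (histidine), and the synthetases held between 125 and 7320 reads each per library. Exact 95% Clopper-Pearson intervals of read ratios are given as counting error between 2 libraries and say nothing of variation between cultures. Although least deep, the combined-treatment library listed 25443 genes above 0, and the other 3 listed 23635 to 23978. Its differences from vehicle had a median of 0.13 over 12750 genes, those whose FPKM averaged 1 or more across the 4 libraries. Dividing each library by its median ratio over genes removes this shift and lowers every log2 read ratio of combined treatment to vehicle by 0.16. All 9 B-lineage markers found in the table were expressed, with summed FPKM of 1540 to 1630. Of 4 monocyte and granulocyte markers in the table, CD14, LYZ and CSF1R lay at 0.0375 to 1.39 FPKM, whereas MPO gave 26.5 to 30.5 FPKM in 3 libraries and 41.0 FPKM in the combined treatment. LYZ and CSF1R were also highest in the combined treatment, with 31 and 83 reads against 8 and 46 in vehicle. Their log2 read ratios to vehicle were 2.10 (0.95 to 3.44) and 1.00 (0.47 to 1.55). CD14 had 4 reads in vehicle and 1 in the combined treatment. The summed FPKM of those 4 markers was 27.0 to 31.2 in 3 libraries and 43.7 in the combined treatment. The part of these markers in the results below was not tested. In bulk RNA, fewer cells of a type and less RNA per cell cannot be told apart.

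Promoter sequences from RefSeq (GRCh38.p14), covering 250 bases before to 50 bases after each start, matched 29 of the 35 genes. They are shown because many of these genes are known to answer to ATF4 through a short element. The core TGATGNAA, searched on both strands, lay in a promoter of 8 of the 29 genes (27.6%) and of 1217 of 27305 genes overall (4.46%). Counted by window, it lay in 8 of 38 synthetase promoters and in 3.62% of all 35116 promoters. In the following lines of 30 bases, read 5′ to 3′ on the gene's strand, capitals mark the match, which sits on the opposite strand in all except NARS1 and YARS2.
AARS1 (chr16:70289675-70289704, minus strand): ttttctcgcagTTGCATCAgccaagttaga
CARS1 (chr11:3057407-3057436, minus strand): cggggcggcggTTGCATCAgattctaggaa
GARS1 (chr7:30594834-30594863, plus strand): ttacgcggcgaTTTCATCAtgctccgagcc
IARS1 (chr9:92293692-92293721, minus strand): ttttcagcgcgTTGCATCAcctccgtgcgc
MARS1 (chr12:57488053-57488082, plus strand): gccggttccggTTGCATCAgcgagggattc
NARS1 (chr18:57621804-57621833, minus strand): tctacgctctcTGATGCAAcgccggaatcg
TARS1 (chr5:33440956-33440985, plus strand): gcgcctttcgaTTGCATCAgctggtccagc
YARS2 (chr12:32756076-32756105, minus strand): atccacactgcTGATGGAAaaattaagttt
Of these 8 genes, 7 encode cytosolic enzymes. In AARS1 and YARS2 the match began 187 and 197 bases before the start, and in the other 6 it lay between 33 bases before and 14 bases after it. All 8 genes were lower in the combined-treatment library than in vehicle, with a median difference of -0.28. Of the 21 matched genes without the core, 14 were lower, with a median of -0.29, and 36.4% of all genes tested were lower. The E-box CACGTG, the element that MYC binds, lay in promoters of 4 of the 29 genes (CARS2, EARS2, IARS1 and MARS2), or 13.8%, against 8.77% of all genes. It lay in 5 of 38 synthetase windows and 7.26% of all windows, and the 4 genes had a median difference of -0.52, against -0.22 for the 25 matched genes without it. MYC itself gave 70.4 FPKM in vehicle, 64.9 with histidine, 65.0 with 6-MP and 17.7 in the combined treatment. Whether MYC or either element bears on these differences was not tested.

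The pair for histidine, the amino acid added to the medium, lies head to head on chromosome 5. HARS1 (chr5:140673035-140691537, minus strand), the cytosolic histidyl-tRNA synthetase, and HARS2 (chr5:140691430-140699305, plus strand), its mitochondrial counterpart, overlap by 108 bases in the gene models of the table. Their RefSeq starts lie at 140691370 and 140691455. The 84 bases between them, the only sequence separating both starts and 59.5% G and C, read on the plus strand:
HARS1-HARS2 (chr5:140691371-140691454, plus strand): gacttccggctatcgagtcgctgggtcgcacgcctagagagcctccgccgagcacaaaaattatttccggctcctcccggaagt
Neither promoter window of the pair held TGATGNAA or CACGTG.

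HARS1 gave 7.30 FPKM in vehicle, 7.56 with histidine, 7.11 with 6-MP and 8.43 in the combined treatment. HARS2 gave 9.41, 9.25, 9.10 and 11.7 FPKM in the same order. Both were thus highest in the combined treatment and nearly level in the other 3 libraries. Histidine alone against vehicle gave differences of 0.04 for HARS1 and -0.02 for HARS2, with intervals that included 0. Against vehicle, the combined-treatment library differed by 0.18 for HARS1 and 0.29 for HARS2, with log2 read ratios of 0.21 (95% counting interval 0.10 to 0.31) and 0.32 (0.14 to 0.50). Against 6-MP the differences were 0.22 and 0.34, and against histidine 0.14 and 0.31. The all-gene median took up much of this: after division by the median ratio, the ratios to vehicle were 0.05 (-0.05 to 0.16) for HARS1 and 0.16 (-0.01 to 0.34) for HARS2, both including 0. Against 6-MP and histidine, HARS2 stayed above 0 after the division, at 0.22 (0.05 to 0.39) and 0.21 (0.04 to 0.38), and the intervals of HARS1 included 0.

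Most synthetase transcripts were lowest in the combined treatment. The combined-treatment library lay below all 3 other libraries for 27 of the 35 genes (16 of 20 cytosolic, 11 of 15 mitochondrial), as it did for 28.8% of all genes, and above all 3 for 7, as for 53.8% of all genes. For PARS2, the mitochondrial prolyl enzyme, it lay among them. The 3 other libraries stayed close together, their range on the log2(FPKM + 1) scale having a median of 0.09 over the 35 genes and a maximum of 0.34 (PARS2). Scaled to the library total without a length (RPM), summed reads of the cytosolic enzymes were 4243 to 4289 RPM in those 3 libraries and 3442 RPM in the combined treatment. For the mitochondrial enzymes the sums were 741 to 747 and 569 RPM.

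Against vehicle, the differences of the 35 genes had a median of -0.31, with 28 below 0 and 7 above. Over all genes tested the median was 0.13 and 36.4% lay below 0. Differences of -0.5 or less were found for 11 synthetases (7.37% of all genes) and of 0.5 or more for SARS1 alone (19.7% of all genes). An absolute difference of at least 1 was reached by VARS1 alone, against 6.53% of all genes. All members are protein-coding, and among 9997 protein-coding genes tested 346 were higher and 76 lower by that much. The counting interval lay below 0 for 25 synthetases, as for 20.8% of all genes and 2479 of the 9997 protein-coding genes. The interval lay above 0 for 5, as for 5447 of the 12750 genes, and included 0 for 5, among them QARS1, FARS2, PARS2 and RARS2. The width of an interval depends on the reads of the gene, so shares of intervals here and below also depend on read number. After division by the median ratio, the intervals of 29 synthetases lay below 0, 1 above (SARS1) and 5 included 0, and QARS1 and RARS2 turned from higher to lower. The share of all genes with such intervals after the division was not counted.

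**Figure D1:**
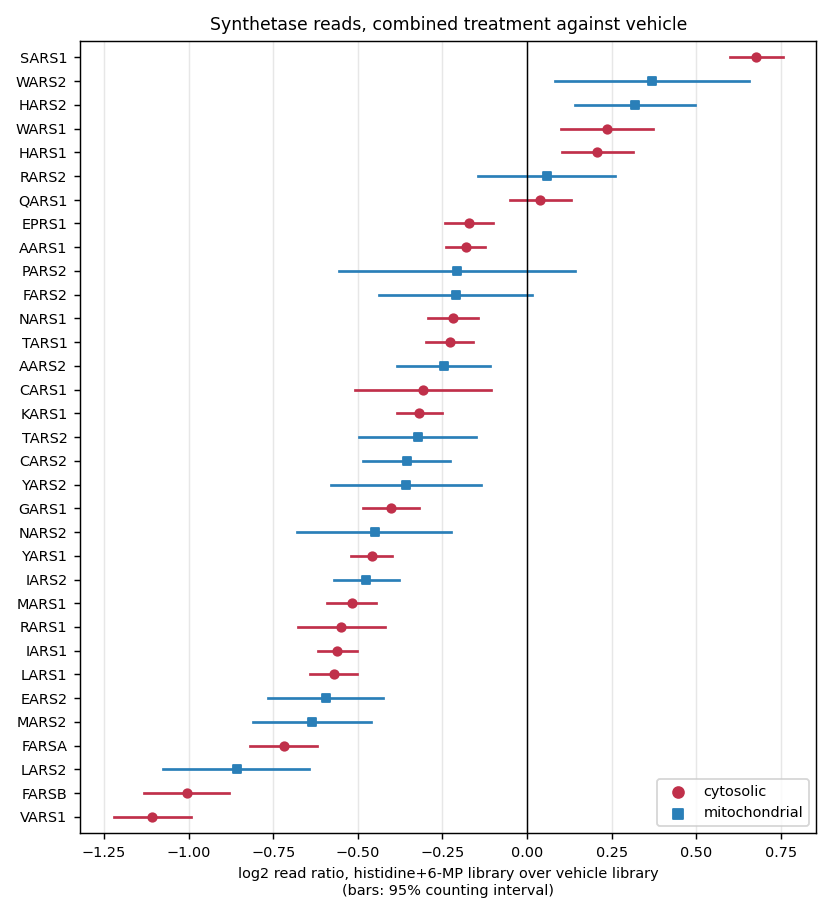
Log2 read ratio of the histidine+6-MP library over the vehicle library for 33 synthetases, sorted, with bars for the 95% counting interval. The bars of 24 genes lie left of 0 and those of 5 right of it, and SARS1 at 0.68 stands apart at the top.

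Among the cytosolic enzymes the lowest difference belonged to VARS1, the valyl enzyme. It gave 25.3 FPKM in vehicle, 27.0 with histidine, 26.9 with 6-MP and 11.7 in the combined treatment, 46.4% of vehicle. Its difference was -1.04, with a log2 read ratio of -1.11 (-1.22 to -0.99). FARSB and FARSA encode the β and α subunits of the cytosolic phenylalanyl enzyme, and both were low together. FARSB gave 17.6, 17.4, 17.0 and 8.78 FPKM in vehicle, histidine, 6-MP and combined treatment, a difference of -0.93. FARSA gave 68.8, 67.3, 65.9 and 41.8 FPKM, a difference of -0.71. IARS1 (isoleucine), LARS1 (leucine) and RARS1 (arginine) had differences of -0.53, -0.53 and -0.52. IARS1 gave 20.5, 20.9, 21.3 and 13.9 FPKM in the 4 libraries.

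SARS1, the cytosolic seryl enzyme, went the other way. It gave 40.5 FPKM in vehicle, 38.7 with histidine, 43.6 with 6-MP and 64.8 in the combined treatment, 160% of vehicle. Its difference was 0.66 against vehicle, 0.56 against 6-MP and 0.73 against histidine, with a log2 read ratio to vehicle of 0.68 (0.60 to 0.76), and 0.52 after division by the median ratio. In that comparison it was the only synthetase whose counting interval stayed above 0 after the division. The other cytosolic genes at the upper end were WARS1, the tryptophanyl enzyme also known as an interferon-inducible gene (9.40 FPKM in vehicle, 11.1 in the combined treatment, difference 0.21), HARS1 (above), QARS1 for glutamine (31.2 and 32.0 FPKM, 0.04) and the fused glutamyl-prolyl enzyme EPRS1 (46.9 and 41.7 FPKM, -0.17). Of 6 interferon genes beside WARS1, the median difference was 0.16, with a range from -0.34 (IRF1) to 0.54 (MX1).

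Among the mitochondrial enzymes at the lower end, LARS2 for leucine gave 3.02, 3.29, 3.08 and 1.67 FPKM in vehicle, histidine, 6-MP and combined treatment, a difference of -0.59 and a log2 read ratio of -0.86 (-1.07 to -0.64), the added 1 damping the difference at this low level. MARS2 (methionine), EARS2 (glutamate) and IARS2 (isoleucine) had differences of -0.59, -0.51 and -0.46. At the upper end stood WARS2 for tryptophan (3.47 FPKM in vehicle, 4.47 in the combined treatment, 0.29), HARS2 (0.29), RARS2 for arginine (9.79 and 10.2 FPKM, 0.05), PARS2 for proline (4.74 and 4.11 FPKM, -0.17) and FARS2 for phenylalanine (-0.17).

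Cytosolic and mitochondrial enzymes were compared next. Their median differences from vehicle were -0.27 (20 genes) and -0.31 (15 genes), with 16 and 12 genes below 0. Against 6-MP the medians were -0.31 and -0.32, and against histidine -0.27 and -0.37. Over summed reads, the log2 ratio to vehicle was -0.31 (95% counting interval -0.33 to -0.29) for the cytosolic and -0.39 (-0.43 to -0.35) for the mitochondrial genes. Against 6-MP these ratios were -0.32 (-0.33 to -0.30) and -0.38 (-0.42 to -0.34), and against histidine -0.30 (-0.32 to -0.28) and -0.39 (-0.43 to -0.35). With SARS1 in the cytosolic sum, the intervals of both compartments did not overlap in any of these comparisons. SARS1, the gene that went the other way, had 2232 reads in vehicle and 3215 in the combined treatment. No sum without it was made, so the intervals are not shown to stay apart without this 1 gene. Whether the compartments differ between cultures was not tested. Against 6-MP the order of the compartment medians depended on the processing, as given below. For 15 amino acids both enzymes were measured, EPRS1 standing for glutamate and for proline. Both enzymes were lower than in vehicle for 12 amino acids and both higher for histidine and tryptophan. Arginine had values on both sides of 0, with RARS1 at -0.52 and RARS2 at 0.05. The counting interval of RARS2 included 0, and after division by the median ratio its difference was -0.09. The differences of both enzymes lay within 0.25 of each other for 11 amino acids. How often synthetases of different amino acids, or other genes, share a direction or lie this close was not counted. The counts are therefore not shown to be particular to the pairs. The pairs farther apart included arginine, phenylalanine (FARSA -0.71, FARS2 -0.17) and glutamate (EPRS1 -0.17, EARS2 -0.51). Across the 15 pairs, which share libraries and in 2 cases EPRS1, Pearson's r was 0.43 and Spearman's rho 0.27, given as a description.

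Levels between compartments were compared per length. In vehicle the cytosolic gene had the higher FPKM in 12 of 15 pairs, with ratios up to 12.8 (FARSA over FARS2), and the lower in 3: cysteine (CARS1 over CARS2, 0.43), histidine (0.78) and isoleucine (0.55). The lengths behind the FPKM of 7 synthetases, among them HARS1 (14155 bases) and IARS1 (22418 bases), exceeded their GENCODE 29 exon length by over 1.5 times. With GENCODE 29 lengths the ratios became 1.40 for histidine and 1.68 for isoleucine, and cysteine stayed at 0.43. The median FPKM in vehicle was 30.5 for cytosolic and 9.41 for mitochondrial genes, and in the combined treatment 28.0 and 6.53.

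The comparisons of the combined treatment with each single agent share its library with the comparison above. Against 6-MP the 35 genes had a median of -0.31, 11 genes at -0.5 or less (6.88% of all genes) and SARS1 at 0.5 or more (19.3%). The counting interval lay below 0 for 26 genes, against 21.2% of all genes. Against histidine the median was -0.30, with 10 genes at -0.5 or less (7.53%), SARS1 at 0.5 or more (17.8%) and 24 intervals below 0 (22.1%). VARS1 was in each the only synthetase with an absolute difference of at least 1, at -1.13 and -1.14, as 6.02% and 5.55% of all genes had. Of the 9997 protein-coding genes, 310 were higher and 71 lower by that much against 6-MP, and 284 and 71 against histidine. Medians over all genes were 0.13 and 0.11.

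Single agents left the synthetases near vehicle. With histidine the differences ran from -0.18 to 0.21 around a median of -0.02, and with 6-MP from -0.17 to 0.24 around 0.01. No synthetase reached an absolute difference of 1 with either agent, as 1.33% and 1.18% of all genes did. Among the 9997 protein-coding genes tested, 15 were higher and 4 lower by that much with histidine, and 12 and 3 with 6-MP. With histidine 4 counting intervals excluded 0 (21.7% of all genes): CARS2, VARS1 and YARS1 were higher and EPRS1 lower. With 6-MP 8 did (17.9% of all genes): IARS1, NARS1, NARS2, SARS1 and VARS1 were higher, and 3, among them AARS1 and CARS1, lower. After division by the median ratio, intervals lay above 0 for 1 gene with histidine (CARS2) and for 3 with 6-MP, and below 0 for 6 and 3. How many of all genes had such intervals after the division was not counted. The departure from additivity, which subtracts the sum of both single-agent differences from the combined-treatment difference against vehicle, had a median of -0.31 over the synthetases and 0.11 over all genes. It was lowest for VARS1 (-1.23) and FARSB (-0.87) and highest for SARS1 (0.62).

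Within the family, the 18 class I enzymes had a median difference from vehicle of -0.45 and the 17 class II enzymes of -0.22. The fused EPRS1 was counted in class I only, although prolyl enzymes such as PARS2 belong to class II. Among cytosolic enzymes the class medians were -0.47 and -0.22, and among mitochondrial enzymes -0.40 and -0.23. Members of class I and class II overlapped, with WARS1 and WARS2 above 0 in class I and FARSA and FARSB among the lower values of class II. The 8 enzymes of the multisynthetase complex had a median of -0.41 and the 12 cytosolic enzymes outside it -0.23. These groups overlapped, with a range of -0.53 to 0.04 in the complex and of -1.04 (VARS1) to 0.66 (SARS1) outside it. Of the scaffolds of the complex, AIMP2 gave 25.1 FPKM in vehicle and 12.4 in the combined treatment, a difference of -0.96. AIMP1 and EEF1E1 had differences of 0.19 and 0.14.

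The 13 cytosolic synthetases known as ATF4 targets had a median difference of -0.23, with 11 below 0, and the 7 others one of -0.31. SARS1 and WARS1 were the ATF4 targets above 0. Of 17 other genes listed for the ATF4 pathway, 15 passed the minimum level, with a median of 0.38, 7 at 0.5 or more (19.7% of all genes) and 4 at 1 or more (5.01% of all genes). ATF5, a transcription factor of the stress response, gave 11.3 FPKM in vehicle, 10.8 with histidine, 16.2 with 6-MP and 58.4 in the combined treatment. ATF3 gave 2.66, 3.25, 2.58 and 11.7 FPKM, DDIT3 (encoding CHOP) 3.10, 2.92, 3.04 and 7.47, and TRIB3, a pseudokinase that restrains ATF4, 8.72, 8.20, 8.62 and 20.9. These 4 genes, the highest of the list in the combined treatment, stood near vehicle with either agent, except ATF5 with 6-MP. Other genes of the list moved with a single agent. With histidine the difference from vehicle was -0.62 for SESN2 and 0.53 for PCK2, and with 6-MP it was 0.53 for CTH. In the combined treatment these were 0.17, 0.23 and 0.11. The ATF4 transcript itself gave 271 FPKM in vehicle and 270 in the combined treatment. The serine-synthesis genes PSAT1 and PHGDH, also ATF4 targets, both had differences of -0.17.

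Other genes of tRNA charging and elongation were measured beside the synthetases. The 7 charging partners above the minimum level, among them the mitochondrial amidotransferase subunits GATB, GATC and QRSL1, had a median difference of 0.05 and a range of -0.25 to 0.25. The 4 cytosolic elongation factors in the table had a median of 0.17, with EEF2, the translocase, at 1005 FPKM in vehicle and 1183 in the combined treatment. Of the mitochondrial elongation factors, TUFM gave 128 and 96.1 FPKM (-0.41) and GFM1 had a difference of -0.29.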

How the data were processed

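Total RNA of the 4 cultures was made into libraries with a TruSeq Stranded mRNA kit. The authors deposited FPKM values per gene in 1 table, with symbols, biotypes and positions, and the treatment of each column was taken from the sample labels. The submitters' processing notes name Trimmomatic, HISAT2, Cufflinks, HTSeq, hg38 and GRCh38. Their versions and roles, and whether strand was used in counting, are not given in the sources used here. Without strand, reads where HARS1 and HARS2 overlap cannot be told apart.

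The read denominators, whole numbers to within 0.00828, and whole reads were recovered from the FPKM steps for 29814 genes and all 35 members. The steps leave a whole multiple open, which was set to 2 so that lengths matched GENCODE 29. The widths of the counting intervals rest on that choice. A further multiple was applied to 1603 genes, 0 of them synthetases. Recovered reads came to 100.1% to 100.2% of the denominators. Differences were taken on log2(FPKM + 1), since FPKM depends on gene length and library total, and genes averaging 1 FPKM or more were counted. The pseudocount understates differences of low genes. The authors' DESeq2 test needs replicates and was not repeated. The depth (12899122 to 15486376 reads) sets the counting intervals. Recovery and fold calls were tested on simulated data. The members and lists were chosen with earlier results of these data known. Named genes were HARS1 and HARS2, the 6 highest and 6 lowest cytosolic and 5 highest and 5 lowest mitochondrial genes of combined treatment against vehicle, genes past a difference of 1, the pairs described and the listed genes. Some of these are counted in the sums, counts and medians but are not reported here by name. Others (YARS1, NARS1, NARS2, CARS2, AARS1, CARS1 and MYC, and genes shown for their promoter) were named after their values were seen. Alternatives were a pseudocount of 0.1, other minimum levels, TPM and median-ratio scaling, a difference of 0.5, protein-coding genes only and cytosolic genes without GARS1 and KARS1. GENCODE 29 lengths, RPM and rescaled intervals were added after seeing the data. None of 4 T cell markers was matched in the table, the 2 erythroid markers were at 0 in 3 libraries, and the stromal marker COL1A1 gave 0.869 to 2.04 FPKM. Python 3.11.15, NumPy 2.4.6, pandas 2.3.3 and SciPy 1.17.1 were used.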

Additional observations from a re-analysis of the deposited data

Results flagged for a closer look

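For 6 genes, a single agent and the same agent added to the other gave differences in opposite directions, each with a counting interval that excluded 0. The difference between them was not tested, as each treatment had 1 library. The share of all genes that met this rule was not counted, so the pattern is not shown to be particular to the synthetases. Single-agent intervals excluded 0 for 21.7% (histidine) and 17.9% (6-MP) of all genes. Histidine alone and histidine added to 6-MP gave 0.21 and -0.32 for CARS2, 0.0924 and -1.13 for VARS1, and 0.0669 and -0.46 for YARS1. 6-MP alone and 6-MP added to histidine gave 0.0483 and -0.55 for IARS1, 0.10 and -0.25 for NARS1, 0.24 and -0.47 for NARS2, and 0.0895 and -1.14 for VARS1. After division by the median ratio, chosen after seeing the data, the single-agent intervals of VARS1 (both agents), YARS1 and IARS1 included 0, and those of CARS2, NARS1 and NARS2 did not.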

How the results depend on the processing

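No paired analysis was possible because a treatment is a single library, so no replicate could be left out either. Counting a difference of 0.5 in place of 1 moved the synthetases called higher in the combined treatment from 0 to 1 and those called lower from 1 to 11, 11 and 10 (against vehicle, 6-MP and histidine). Division by the median ratio raised those called lower to 2 in each of these comparisons, the second against vehicle being FARSB at -1.07. It moved the cytosolic medians to -0.42, -0.45 and -0.40 and that of the departure from additivity to -0.43, turned QARS1 (-0.11) and RARS2 (-0.0899) lower than vehicle, and left 1 counting interval above 0 in place of 5 against vehicle, 3 in place of 4 against 6-MP and 2 in place of 5 against histidine. Shares of all genes with such intervals after the division were not counted. Medians near 0 changed sign. The cytosolic median minus the mitochondrial one against 6-MP became -0.0335 with a minimum FPKM of 5 and -0.0108 with the median ratio. The cytosolic median of histidine against vehicle became 0.0051 as TPM and 0.0030 without GARS1 and KARS1. With a minimum FPKM of 5, the mitochondrial median of 6-MP against vehicle became -0.0513 and the cytosolic median minus it 0.0633. The cause was not tested. The other summary values, 164 of 184, and 81 of 105 values of single genes moved by less than their counting error or, for counts, 1.5 times. The 164 include settings that could not move the synthetase values. All 35 members were protein-coding and passed the minimum level. Removing that level or keeping protein-coding genes only therefore left their medians and counts unchanged, and a threshold of 0.5 cannot move a median. Depth limits low genes most, PARS2 having 125 to 195 reads.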

Other observations

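The amino acid transporter genes of the ATF4 list, read beside the synthetases, were also higher in the combined treatment. SLC7A11, the cystine carrier, gave 7.41 FPKM in vehicle, 6.45 with histidine, 8.47 with 6-MP and 13.6 in the combined treatment. Its partner SLC3A2 gave 28.3, 28.6, 27.9 and 47.1 FPKM. ASNS, asparagine synthetase, which is not an aminoacyl-tRNA synthetase and lay under the minimum level, gave 0.457 FPKM in vehicle and 1.24 in the combined treatment, with a log2 read ratio of 1.44 (95% counting interval 0.83 to 2.08). EIF2AK4, the gene of GCN2, had a log2 read ratio of 0.05 (-0.08 to 0.19). MTHFD2, a mitochondrial folate enzyme, had a difference of 0.38.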
